A study of Homo sapiens with 6 samples.

Results

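The collagen, laminin and integrin genes of HEK293T cells were followed after silencing of LOC550643. The set holds 82 of the 26391 genes in the deposited table, taken as every protein-coding gene whose symbol names a collagen alpha chain (44 genes), a laminin chain (12), an integrin alpha chain (18) or an integrin beta chain (8). Messenger RNA was measured by poly-A RNA sequencing in 6 samples of HEK293T, an established line derived from human embryonic kidney and expressing SV40 large T antigen. In the LOC550643 siRNA group, 3 samples were transfected with a pool of 4 siRNAs against LOC550643, a gene for a small protein that binds the decapping scaffold EDC4. In the control siRNA group, 3 samples received a non-silencing siRNA. Both groups were transfected at 50% confluency with the same lipid reagent and lysed after 48 hours, and the comparison asks which mRNA levels differ once the gene is silenced. With 1 pool against 1 control siRNA, effects of the silencing and other effects of either siRNA cannot be told apart.

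Collagens are secreted trimers of alpha chains wound around each other. Type IV collagen and the laminins, which are trimers of an alpha, a beta and a gamma chain, build the basement membrane, the thin sheet on which kidney epithelium rests. Integrins are pairs of an alpha and a beta chain that span the plasma membrane, bind these matrix proteins and link them to actin. Each trimer or pair needs chains from several genes, so the levels of partner chains are given side by side.

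Levels are read pairs per 1000000 in the library (CPM) after TMM scaling, and a fold change is LOC550643 siRNA over control siRNA from a limma fit over all 16265 genes tested, with Benjamini-Hochberg adjusted p-values over those genes and a threshold of 0.05. Fold changes are on the log2(value + pseudocount) scale, which understates the change of low genes. No label says that the 3 samples of a group came from separate cultures, so the spread behind the p-values is that of these samples alone and may be technical. In bulk RNA, fewer cells of a type and less RNA per cell cannot be told apart. Depth was inferred at 35249990, 30739325 and 8604237 read pairs in LOC550643 siRNA libraries 1 to 3 and at 32309955 to 36082397 in the control libraries, so LOC550643 siRNA library 3 had the largest counting error. Control library 2 stood apart from control libraries 1 and 3, with a chi-square per degree of freedom of 29.5 and 39.3 against them, while those differed from each other by 9.04. The target, listed as LINC01420, stood at 5.86, 6.00 and 5.37 CPM in the LOC550643 siRNA libraries, against 56.2, 50.5 and 52.1 CPM in the control libraries. Of 8 lineage markers of HEK293 cells all 8 were detected, led by vimentin (VIM) at 870 CPM in LOC550643 siRNA and 813 CPM in control libraries (limma adjusted p = 0.415). Of these 8, KRT18 (log2 0.51) and NEFM (log2 0.42) were higher and CDH2 (log2 -0.25) was lower; their part in the members' results was not tested.

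Across the 68 members that passed the filter on low counts, 11 were higher, 13 were lower and 44 did not pass. In all, 35.3% of members were called, and the same share of all tested genes was called, 35.3% (17.1% higher and 18.2% lower). Scaling by library totals alone gave 2080 higher and 3976 lower genes, against 2783 higher and 2953 lower with TMM, and 10 higher and 16 lower members. The groups did not overlap at 30 members (44.1%), against 48.1% of all tested genes. The median log2 fold change was 0.00 over the members and -0.02 over all tested genes. The share of members called was thus that of the background. Collagens accounted for 10 of the 11 rises and 6 of the falls among 34 tested chains. Of 11 laminin chains 0 rose, of 17 integrin alpha chains 0 rose and 4 fell, and of 6 integrin beta chains 1 rose and 1 fell. At that threshold 11 members were higher and 14 lower in the authors' deposited table, of which 23 were also called here in the same direction.

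**Figure D1:**
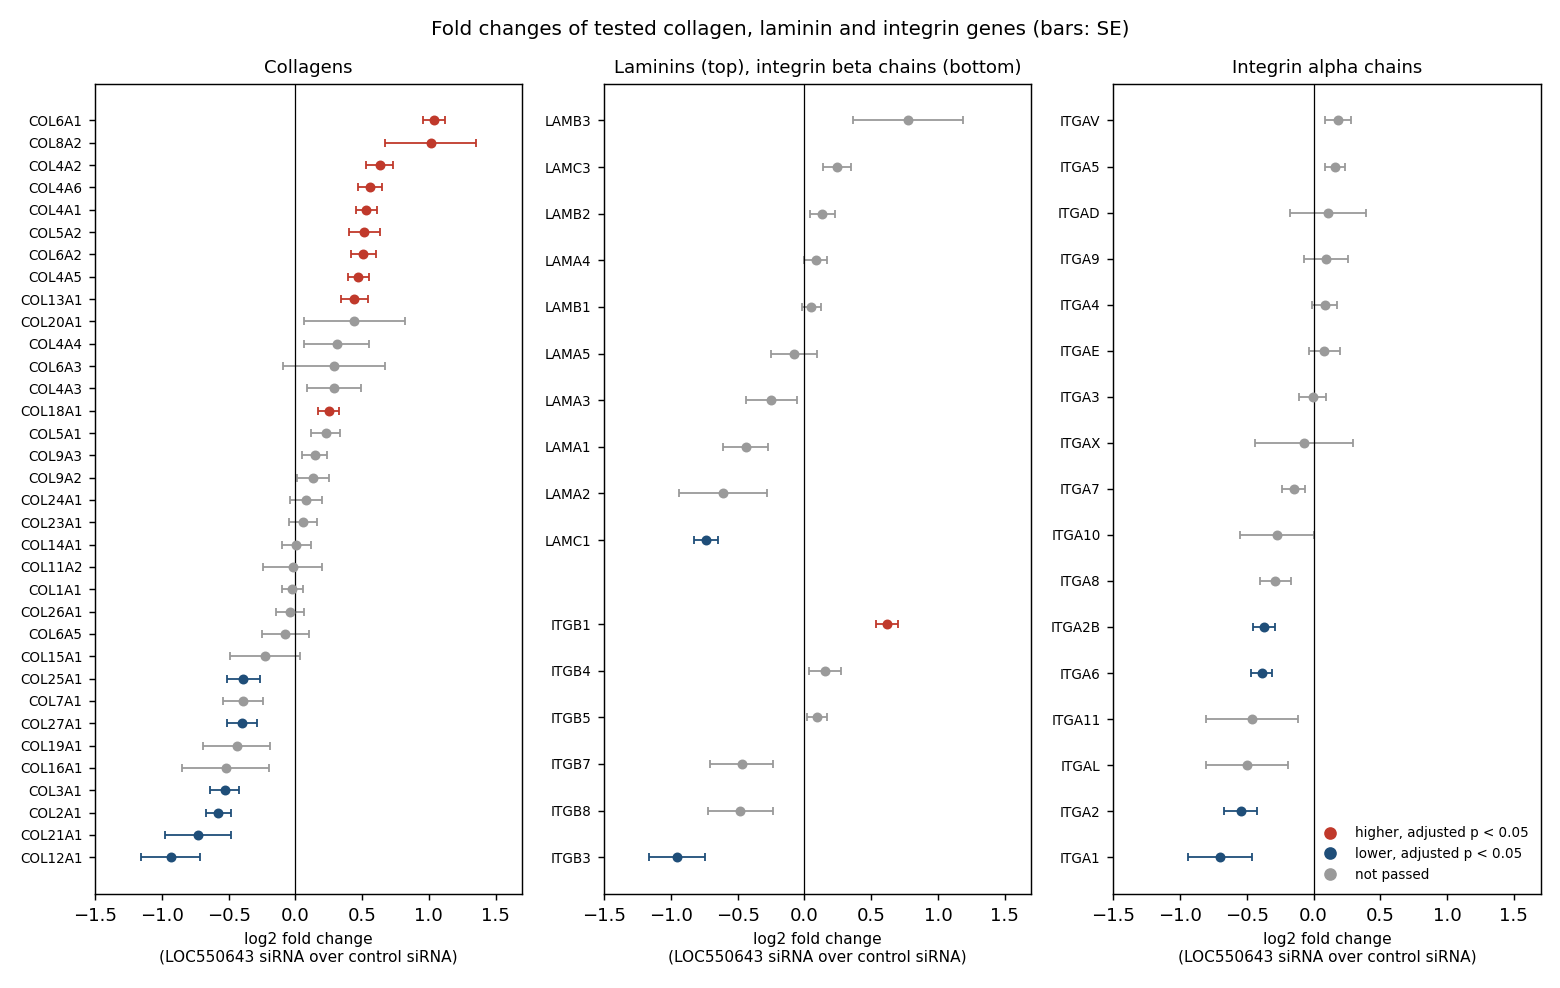
Log2 fold change (x axis, LOC550643 siRNA over control siRNA) of 67 of the 68 tested members, with the standard error as bars and n = 3 libraries per group. Red marks the 11 members called higher, blue 12 called lower and grey the 44 that did not pass; COL6A1 and COL8A2 lie past a log2 fold change of 1 and all 4 called integrin alpha chains lie left of 0.

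Differences were mostly small. Past a log2 fold change of 1 stood 2 of the 68 members, COL6A1 and COL8A2, where 2.78% of all tested genes did so. The members are long genes, with a median transcript model of 5575 bases against 2207 bases over all genes. Of tested genes of at least 6 kb, 11.2% were higher and 21.0% lower; of the 29 tested members in that class 5 were higher (17.2%) and 4 lower (13.8%). Of tested genes with a mean of at least 50 CPM, 29.0% were higher and 13.1% lower; of the 14 members at that level 5 were higher (35.7%) and 2 lower (14.3%). Control library 2 moved with length: its level over the mean of control libraries 1 and 3 had a median log2 ratio of 0.25 in tested genes of at least 6 kb, -0.02 over all tested genes and 0.16 over the tested members. The part of length and of this library in the fold changes was not tested; without control library 2, 12 members were higher and 10 lower.

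The basement membrane chains of type IV collagen rose together. Of the 6 collagen IV genes, the 4 with substantial expression, COL4A1, COL4A2, COL4A5 and COL4A6, were all higher by about the same factor. The kidney and lung chains COL4A3 and COL4A4 were low and did not pass. Over all tested genes 17.1% were higher. COL4A2 (NM_001846, chromosome 13, 110959631 to 111165373 on the plus strand, hg19), which joins COL4A1 in the ubiquitous trimer, stood at 132, 129 and 101 CPM in the LOC550643 siRNA libraries and at 78.3, 80.4 and 73.4 CPM in the control libraries. The LOC550643 siRNA libraries were all above the control libraries, the shallow library 3 being the lowest of its group. COL4A2 was 1.55-fold higher (log2 0.63, SE 0.10, limma adjusted p = 0.000427). COL4A1 (NM_001845, chromosome 13, 110801305 to 110959504 on the minus strand) stood at 32.7, 34.3 and 33.0 CPM in the LOC550643 siRNA libraries and at 23.3, 23.8 and 21.9 CPM in the control libraries. Its groups lay apart with little spread within either, and it was 1.45-fold higher (log2 0.53, SE 0.08, limma adjusted p = 0.000293).

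COL4A5 and COL4A6, the X-linked pair whose chains also form a basement membrane trimer together, behaved alike. COL4A5 (NM_033380, chromosome X, 107683074 to 107940775 on the plus strand) stood at 59.6, 56.0 and 58.6 CPM in the LOC550643 siRNA libraries and at 40.7, 45.6 and 39.5 CPM in the control libraries (log2 0.47, SE 0.08, limma adjusted p = 0.000681). COL4A6 (NM_033641, chromosome X, 107398837 to 107681660 on the minus strand) stood at 44.7, 40.5 and 38.1 CPM in the LOC550643 siRNA libraries and at 26.6, 30.3 and 26.5 CPM in the control libraries (log2 0.56, SE 0.09, limma adjusted p = 0.000471). In neither gene did the groups overlap. COL4A3 averaged 2.08 ± 0.349 CPM in LOC550643 siRNA and 1.701 ± 0.284 CPM in control libraries (SD, n = 3 each; log2 0.29, limma adjusted p = 0.288). COL4A4 averaged 3.46 ± 0.839 CPM in LOC550643 siRNA and 2.85 ± 1.08 CPM in control libraries (log2 0.31, limma adjusted p = 0.353). Summed per kilobase of transcript, the collagen IV chains held 40.3 ± 3.12 CPM per kb in LOC550643 siRNA and 27.2 ± 1.595 CPM per kb in control libraries.

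These genes sit in the genome as divergent pairs that start next to each other, and the stretches between or before the starts are printed because the members of each pair moved together. Sequences are from RefSeq (GRCh38.p14), 5′ to 3′ on the strand named, and capitals mark GC boxes (GGGCGG or its complement CCGCCC) and CCAAT boxes (CCAAT or its complement ATTGG). The starts of COL4A1 and COL4A2 lie 126 bases apart in that annotation, and the whole stretch between them, chr13:110307158-110307283 on the plus strand, reads towards COL4A2. It holds 1 GC box and 1 CCAAT box and is 80.2% G and C. The starts of COL4A5 and COL4A6 lie 379 bases apart in the same annotation, while the deposited hg19 models leave 1413 bases between them. The 250 bases before COL4A5, chrX:108439588-108439837 on the plus strand, hold 2 CCAAT boxes near the COL4A6 end and 0 GC boxes.
COL4A1 and COL4A2 gap: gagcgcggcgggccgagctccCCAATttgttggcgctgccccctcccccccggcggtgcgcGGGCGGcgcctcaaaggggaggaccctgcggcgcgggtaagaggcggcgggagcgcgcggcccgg
COL4A5: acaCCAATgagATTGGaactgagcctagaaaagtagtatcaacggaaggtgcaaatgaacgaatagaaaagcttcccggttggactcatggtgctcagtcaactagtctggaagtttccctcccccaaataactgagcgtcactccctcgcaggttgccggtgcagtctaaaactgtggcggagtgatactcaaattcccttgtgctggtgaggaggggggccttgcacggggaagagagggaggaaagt

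Over the 250 bases before the start, 42.3% of 27305 promoters in that table held a GC box on either strand and 33.0% a CCAAT box. In the 126 bases nearest the start, 7.83% held both. A promoter was found for 58 of the 82 members; of 9 members called higher with one, 6 held a GC box and 4 a CCAAT box, and of 9 called lower, 5 held a GC box and 1 a CCAAT box. An AP-1 motif (TGANTCA, which reads the same on both strands) was found in 0 of these 18 called members and in 6.60% of all promoters, and a TATA box (TATAAA or TTTATA) in 2 of the 9 higher and 1 of the 9 lower members, against 11.1% of all promoters. These are matches of letters only.

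Collagen VI forms beaded microfilaments next to the basement membrane, and 2 of its 4 tested chains rose, where 17.1% of all tested genes did. COL6A1 (NM_001848, chromosome 21, 47401663 to 47424963 on the plus strand) was the most abundant member per kilobase in both groups. It stood at 536, 543 and 465 CPM in the LOC550643 siRNA libraries and at 262, 252 and 238 CPM in the control libraries. The lowest LOC550643 siRNA library was far above the highest control library, and COL6A1 was 2.05-fold higher (log2 1.04, SE 0.08, limma adjusted p = 3.81e-06). COL6A2, its neighbour 93069 bases downstream on the same strand (NM_001849, 47518033 to 47552763) and its partner in the trimer, stood at 238, 256 and 202 CPM in the LOC550643 siRNA libraries and at 171, 164 and 152 CPM in the control libraries. Its groups did not overlap either, and it was 1.42-fold higher (log2 0.51, SE 0.09, limma adjusted p = 0.00107).

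COL6A1 thus rose by more than COL6A2. Per kilobase and within each library, which no scaling between libraries can move, the ratio of COL6A1 to COL6A2 was 1.83, 1.73 and 1.87 in the LOC550643 siRNA libraries and 1.25, 1.25 and 1.28 in the control libraries. The ratio was higher in every LOC550643 siRNA library than in any control library; this and the other ratios were chosen after the levels were seen and are given without a test. COL6A3, the long chain of the usual trimer, averaged only 0.371 ± 0.119 CPM in LOC550643 siRNA and 0.291 ± 0.0606 CPM in control libraries and did not pass (log2 0.29, limma adjusted p = 0.586). COL6A1 made up 35.1% ± 0.10 of the summed collagen level per kilobase in LOC550643 siRNA libraries and 23.5% ± 0.469 in control libraries, while COL6A2 made up 19.4% ± 0.862 in LOC550643 siRNA libraries and 18.7% ± 0.507 in control libraries (SD, n = 3 each). The 250 bases before COL6A2, chr21:46097862-46098111 on the plus strand (GRCh38.p14), are printed for comparison with the collagen IV genes. They hold 4 GC boxes, in capitals, 0 CCAAT boxes and the letters TATAAA, which begin 32 bases before the start.
COL6A2: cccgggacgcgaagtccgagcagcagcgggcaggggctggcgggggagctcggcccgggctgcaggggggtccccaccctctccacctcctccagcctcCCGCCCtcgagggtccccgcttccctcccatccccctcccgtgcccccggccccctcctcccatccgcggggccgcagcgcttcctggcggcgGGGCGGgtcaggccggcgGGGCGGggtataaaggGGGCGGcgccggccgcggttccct

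**Figure D2:**
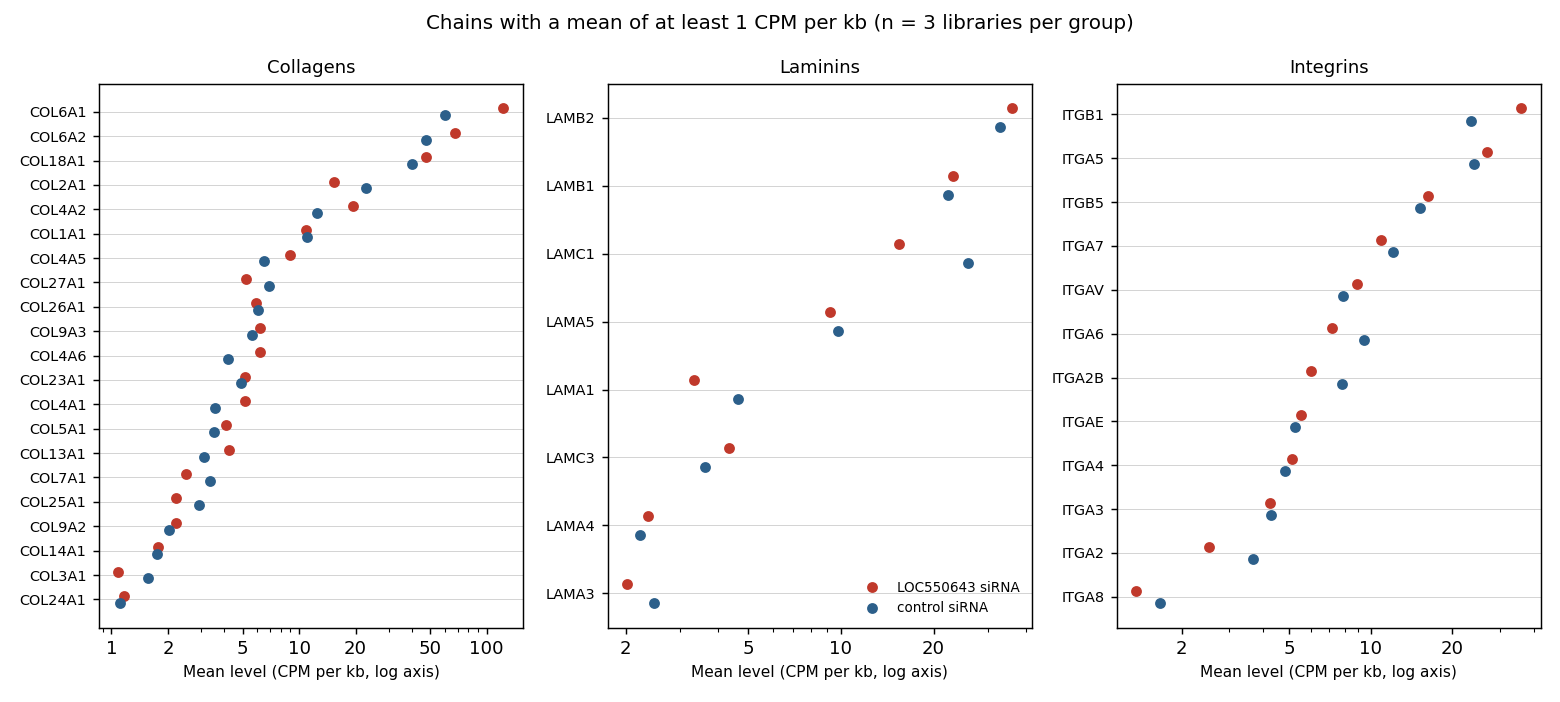
Mean level per kilobase of transcript (x axis, CPM per kb, log axis) of the 41 members with a mean of at least 1 CPM per kb, LOC550643 siRNA in red above control siRNA in blue, n = 3 libraries per group. COL6A1 leads the collagens at 122.9 CPM per kb in LOC550643 siRNA and 59.8 CPM per kb in control libraries, LAMC1 lies to the left of its control value and ITGB1 to the right.

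Among the fibrillar collagens, which form the banded fibres of connective tissue and cartilage, 1 of 8 tested chains rose and 3 fell. The background over all tested genes was 17.1% higher and 18.2% lower. COL2A1, the cartilage collagen (NM_001844, chromosome 12, 48366748 to 48398285, minus strand), stood at 82.8, 83.2 and 65.2 CPM in the LOC550643 siRNA libraries and at 119, 110 and 114 CPM in the control libraries. All LOC550643 siRNA libraries were below the control libraries (log2 -0.58, SE 0.10, limma adjusted p = 0.000587). COL3A1 and COL5A2 lie tail to tail on chromosome 2 with 19168 bases between them and went opposite ways. COL3A1, a partner of type I collagen in soft tissues, stood at 5.82, 6.24 and 5.72 CPM in the LOC550643 siRNA libraries and at 8.46, 8.31 and 8.92 CPM in the control libraries (log2 -0.53, SE 0.11, limma adjusted p = 0.00277). COL5A2, a chain of the type V collagen that sits inside fibrils, stood at 7.37, 7.76 and 7.20 CPM in the LOC550643 siRNA libraries and at 5.03, 5.62 and 4.93 CPM in the control libraries (log2 0.52, SE 0.12, limma adjusted p = 0.00471). In both genes the groups lay apart. Its partner COL5A1 averaged 34.1 ± 2.61 CPM in LOC550643 siRNA and 29.3 ± 4.58 CPM in control libraries and did not pass (log2 0.23, limma adjusted p = 0.127), though it did without control library 2 (adjusted p = 0.0213).

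COL27A1, a fibrillar chain of cartilage, stood at 41.4, 38.5 and 41.1 CPM in the LOC550643 siRNA libraries and at 49.2, 66.1 and 46.3 CPM in the control libraries (log2 -0.40, limma adjusted p = 0.0171); the groups lay apart, control library 2 being the highest, and the call was lost without LOC550643 siRNA library 2 (adjusted p = 0.0722). COL1A1, the main chain of type I collagen, averaged 63.6 ± 2.44 CPM in LOC550643 siRNA and 64.7 ± 4.60 CPM in control libraries (log2 -0.02, SE 0.08, limma adjusted p = 0.853). COL1A2, with which COL1A1 forms type I collagen in most tissues, was at 0 in every library but control library 2. There it stood at 0.01445 CPM, less than 1 read pair, which rounding made 1. A count of 0 allows up to 3 read pairs, which is 0.087 to 0.354 CPM in the LOC550643 siRNA libraries and 0.0816 to 0.0906 CPM in the control libraries, for counting error only. Fibroblast markers were low beside COL1A1: of 8 in the list, which includes COL1A1, COL1A2 and COL3A1, THY1 was at 0 in all libraries and LUM, DCN, PDGFRB and FAP averaged under 1 CPM in each group. The summed level of that list was 67.5 to 73.3 CPM in LOC550643 siRNA and 70.4 to 77.8 CPM in control libraries.

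Of the 16 tested collagens outside types IV, VI and the fibrillar class, 3 rose, 3 fell and 10 did not pass. Both shares are near those of all tested genes, 17.1% higher and 18.2% lower. COL18A1, the basement membrane collagen whose end piece is endostatin, followed COL6A1 and COL6A2 in level per kilobase. It stood at 275, 263 and 233 CPM in the LOC550643 siRNA libraries and at 218, 213 and 217 CPM in the control libraries (log2 0.25, SE 0.08, limma adjusted p = 0.0255). Its groups lay apart, yet the call was lost without LOC550643 siRNA library 1 or 2, without control library 1 or 3 and with library totals alone, where the adjusted p reached 0.103. COL13A1, a transmembrane collagen of cell junctions, stood at 12.6, 14.4 and 12.3 CPM in the LOC550643 siRNA libraries and at 9.31, 9.52 and 10.0 CPM in the control libraries (log2 0.44, SE 0.10, limma adjusted p = 0.00531). COL25A1, the transmembrane collagen found in amyloid plaques, stood at 12.99, 12.1 and 12.5 CPM in the LOC550643 siRNA libraries and at 14.7, 20.1 and 14.9 CPM in the control libraries (log2 -0.39, limma adjusted p = 0.0257). The groups lay apart, but that call was lost without LOC550643 siRNA library 2 or 3 or control library 2, the highest, with an adjusted p of up to 0.087.

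COL12A1, which decorates fibrils, stood at 1.42, 1.09 and 1.36 CPM in the LOC550643 siRNA libraries and at 1.99, 3.31 and 2.30 CPM in the control libraries (log2 -0.93, SE 0.22, limma adjusted p = 0.00594). The groups did not overlap, and control library 2 was again the highest. COL21A1, a collagen of the same fibril-associated class, stood at 0.667, 0.983 and 0.649 CPM in the LOC550643 siRNA libraries and at 1.13, 1.29 and 1.40 CPM in the control libraries (log2 -0.73, limma adjusted p = 0.0363), a call lost in 8 of 15 alternative settings, among them those without LOC550643 siRNA library 1 or 3 or without any of the control libraries. COL8A2, a collagen of the corneal Descemet membrane, averaged 0.741 ± 0.248 CPM in LOC550643 siRNA and 0.338 ± 0.058 CPM in control libraries (log2 1.01, limma adjusted p = 0.0348). It was lost in 6 settings, without LOC550643 siRNA library 2 or 3, without any control library and with DESeq2. COL7A1, which builds the anchoring fibrils of skin, averaged 22.7 ± 1.08 CPM in LOC550643 siRNA and 30.5 ± 7.99 CPM in control libraries and did not pass (log2 -0.39, limma adjusted p = 0.0565). It passed in 4 settings, including the one without control library 3 and DESeq2, and the authors' deposited table lists it at -0.43 with an adjusted p of 0.0415.

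**Figure D3:**
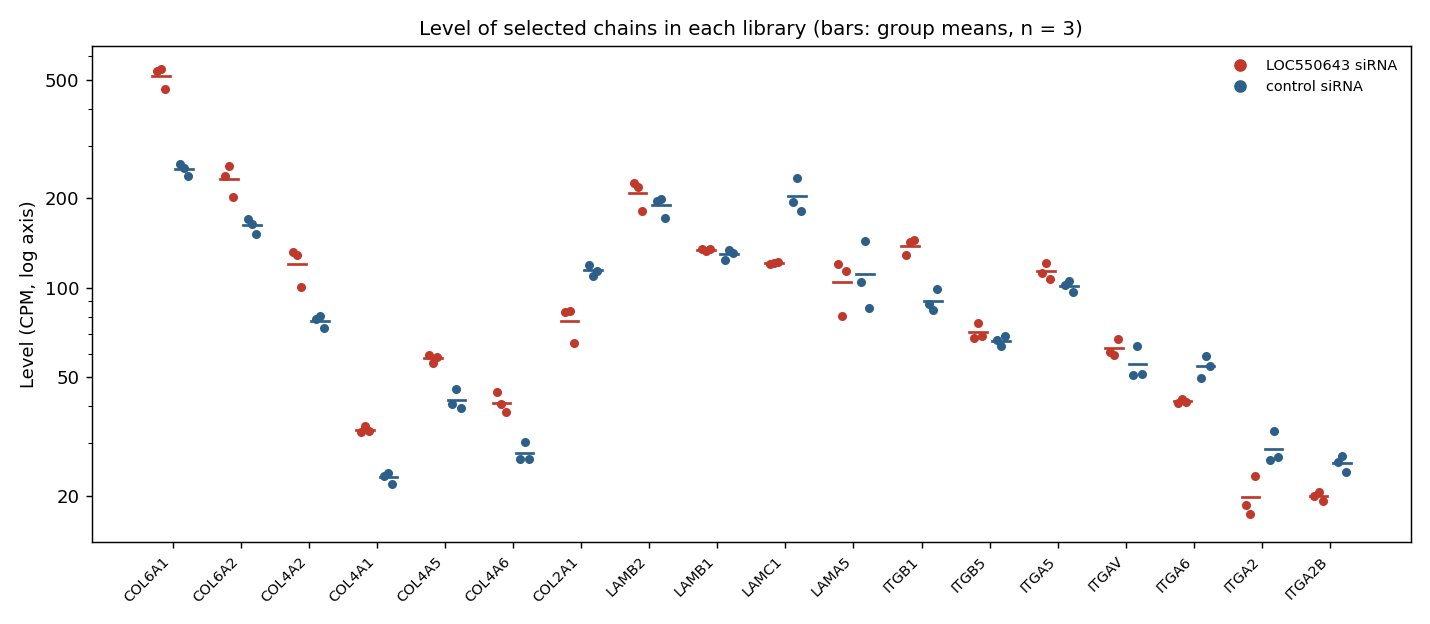
Level in each library (y axis, CPM, log axis) of 18 selected chains, LOC550643 siRNA libraries in red left of control siRNA libraries in blue; bars are means of 3 libraries. The groups lie apart for the collagen IV and VI chains shown, COL2A1, LAMC1, ITGB1, ITGA5, ITGA6, ITGA2 and ITGA2B, and overlap for LAMB1, LAMB2, LAMA5, ITGB5 and ITGAV; ITGA5 did not pass the test.

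Among the laminin chains described here, LAMC1 fell and the alpha and beta chains did not pass. LAMC1, the gamma chain of most laminins (NM_002293, chromosome 1, 182992595 to 183114727, plus strand), stood at 120.5, 120.9 and 121.7 CPM in the LOC550643 siRNA libraries and at 194.5, 234 and 181 CPM in the control libraries. The LOC550643 siRNA libraries were nearly equal and far below the lowest control library. LAMC1 fell to 0.599 of the control level (log2 -0.74, SE 0.09, limma adjusted p = 8.07e-05). LAMC3, found in nerve and testis laminins, averaged 26.2 ± 3.57 CPM in LOC550643 siRNA and 22.0 ± 1.04 CPM in control libraries and did not pass (log2 0.25, limma adjusted p = 0.0858). Without LOC550643 siRNA library 3 and with edgeR or DESeq2 it passed upward, with an adjusted p as low as 0.012.

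The beta chains that join LAMC1 did not pass. LAMB1 averaged 134 ± 1.67 CPM in LOC550643 siRNA and 130 ± 5.38 CPM in control libraries (log2 0.05, SE 0.07, limma adjusted p = 0.577). LAMB2, the beta chain of the kidney filter and the synapse, averaged 208 ± 23.5 CPM in LOC550643 siRNA and 189 ± 15.0 CPM in control libraries (log2 0.14, SE 0.09, limma adjusted p = 0.288). Within each library the ratio of LAMC1 to LAMB1, per kilobase, was 0.657, 0.675 and 0.666 in the LOC550643 siRNA libraries and 1.16, 1.29 and 1.02 in the control libraries. LAMC1 was thus below LAMB1 in every LOC550643 siRNA library and above it in every control library. The summed gamma chains stood at 0.337 ± 0.0150 of the summed beta chains in LOC550643 siRNA and at 0.539 ± 0.0367 in control libraries (SD, n = 3 each). LAMC1 made up 77.3% ± 2.41 of the gamma chains in LOC550643 siRNA libraries and 86.6% ± 1.84 in control libraries.

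All 5 laminin alpha chains were tested and 0 passed, and in all 5 the groups overlapped. Over all tested genes 35.3% passed, and in 48.1% the groups did not overlap. LAMA5, the alpha chain of adult basement membranes, stood at 119.8, 80.4 and 113.5 CPM in the LOC550643 siRNA libraries and at 104.4, 144 and 85.7 CPM in the control libraries. The spread within each group was larger than the difference between them (log2 -0.08, SE 0.17, limma adjusted p = 0.756). LAMA1, the alpha chain of embryonic laminin, stood at 34.7, 27.4 and 34.1 CPM in the LOC550643 siRNA libraries and at 40.3, 59.7 and 33.7 CPM in the control libraries (log2 -0.44, SE 0.17, limma adjusted p = 0.058). LAMA3 averaged 21.4 ± 3.56 CPM in LOC550643 siRNA and 26.2 ± 9.10 CPM in control libraries (log2 -0.25, limma adjusted p = 0.338). In LAMA1, LAMA3 and LAMA5, whose models run from 9592 to 11349 bases, control library 2 was the highest of the 6; without it the log2 fold change was 0.005 for LAMA3 and 0.11 for LAMA5. LAMA1 passed without control library 3 and with library totals alone (adjusted p as low as 0.0161), and the authors' deposited table lists it at -0.48 with an adjusted p of 0.034. LAMA4, of vessel and muscle laminins, averaged 17.3 ± 0.452 CPM in LOC550643 siRNA and 16.4 ± 0.755 CPM in control libraries (log2 0.08, limma adjusted p = 0.488).

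Among the integrins, the common beta chain rose, and of the 12 alpha chains known to pair with it 0 rose, 3 fell (ITGA1, ITGA2 and ITGA6) and 9 did not pass, where 18.2% of all tested genes fell. ITGB1 (NM_002211, chromosome 10, 33189246 to 33247293, minus strand) encodes the beta1 chain that pairs with most alpha chains. It stood at 129, 142 and 144 CPM in the LOC550643 siRNA libraries and at 88.2, 84.0 and 98.8 CPM in the control libraries. The groups lay well apart, and ITGB1 was 1.54-fold higher (log2 0.62, SE 0.08, limma adjusted p = 0.000133). Those 12 alpha chains summed to 68.7 ± 1.19 CPM per kb in LOC550643 siRNA and 69.8 ± 4.44 CPM per kb in control libraries. ITGB1 therefore stood at 0.485, 0.531 and 0.556 of that sum in the LOC550643 siRNA libraries and at 0.340, 0.291 and 0.382 in the control libraries, without overlap.

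For the fall and the rise with the smallest adjusted p outside the collagens, the 250 bases before the start are printed. They lie at chr1:183023170-183023419 on the plus strand for LAMC1 and at chr10:32958231-32958480 on the minus strand for ITGB1 (GRCh38.p14). Each holds 3 GC boxes, in capitals, and 0 CCAAT boxes.
LAMC1: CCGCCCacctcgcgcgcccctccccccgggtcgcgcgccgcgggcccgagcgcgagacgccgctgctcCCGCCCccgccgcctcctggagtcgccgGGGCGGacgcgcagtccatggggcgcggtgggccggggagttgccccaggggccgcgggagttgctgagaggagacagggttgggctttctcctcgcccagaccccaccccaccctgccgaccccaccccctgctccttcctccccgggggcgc
ITGB1: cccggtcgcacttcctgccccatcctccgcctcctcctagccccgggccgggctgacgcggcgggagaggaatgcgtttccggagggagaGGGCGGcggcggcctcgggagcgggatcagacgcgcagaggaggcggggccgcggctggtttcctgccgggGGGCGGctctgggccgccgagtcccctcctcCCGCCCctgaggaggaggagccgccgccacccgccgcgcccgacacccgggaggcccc

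Of the 4 alpha chains that bind collagen, 0 rose and 2 fell, both neighbours on chromosome 5. Among all tested genes 17.1% rose and 18.2% fell. ITGA2, the alpha2 chain of the collagen receptor of platelets and epithelium (NM_002203, 52285156 to 52390609, plus strand), stood at 18.6, 17.3 and 23.3 CPM in the LOC550643 siRNA libraries and at 26.3, 32.9 and 27.0 CPM in the control libraries. All LOC550643 siRNA libraries were below the control libraries (log2 -0.54, SE 0.12, limma adjusted p = 0.00417). ITGA1, which lies 35670 bases upstream, stood at 2.35, 2.63 and 4.90 CPM in the LOC550643 siRNA libraries and at 4.29, 6.01 and 5.13 CPM in the control libraries. Its groups overlapped, since the shallow LOC550643 siRNA library 3 was above control library 1 (log2 -0.70, SE 0.24, limma adjusted p = 0.0367). The call was lost without LOC550643 siRNA library 1 or 2, without control library 2 or 3 and without the filter, where the adjusted p reached 0.145. PELO lies within ITGA1 on the same strand and had a mean deposited value of 1511.88, against 124.88 for ITGA1. The part of PELO reads in the ITGA1 level was not tested. ITGA10 and ITGA11, the collagen receptors of cartilage and stroma, were under 1.1 CPM in all libraries and did not pass.

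Of the 3 alpha chains that bind laminin, ITGA6 fell and the others did not pass, where 18.2% of all tested genes fell. ITGA6, which pairs with beta1 or with beta4 in hemidesmosomes (NM_000210, chromosome 2, 173292314 to 173371181, plus strand), stood at 41.1, 42.1 and 41.2 CPM in the LOC550643 siRNA libraries and at 49.8, 58.9 and 54.7 CPM in the control libraries. The groups lay apart (log2 -0.39, SE 0.08, limma adjusted p = 0.0026). The ratio of ITGB1 to ITGA6 per kilobase was 4.71, 5.08 and 5.25 in the LOC550643 siRNA libraries and 2.66, 2.14 and 2.71 in the control libraries, with no overlap. ITGA7, of muscle, averaged 44.5 ± 2.77 CPM in LOC550643 siRNA and 49.3 ± 4.14 CPM in control libraries (log2 -0.15, limma adjusted p = 0.197). ITGA3 averaged 21.3 ± 2.40 CPM in LOC550643 siRNA and 21.3 ± 1.56 CPM in control libraries (log2 -0.005, limma adjusted p = 0.975). ITGB4, the beta partner of ITGA6 in epithelium, averaged 5.95 ± 0.202 CPM in LOC550643 siRNA and 5.34 ± 0.133 CPM in control libraries and did not pass (log2 0.16, limma adjusted p = 0.327).

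**Figure D4:**
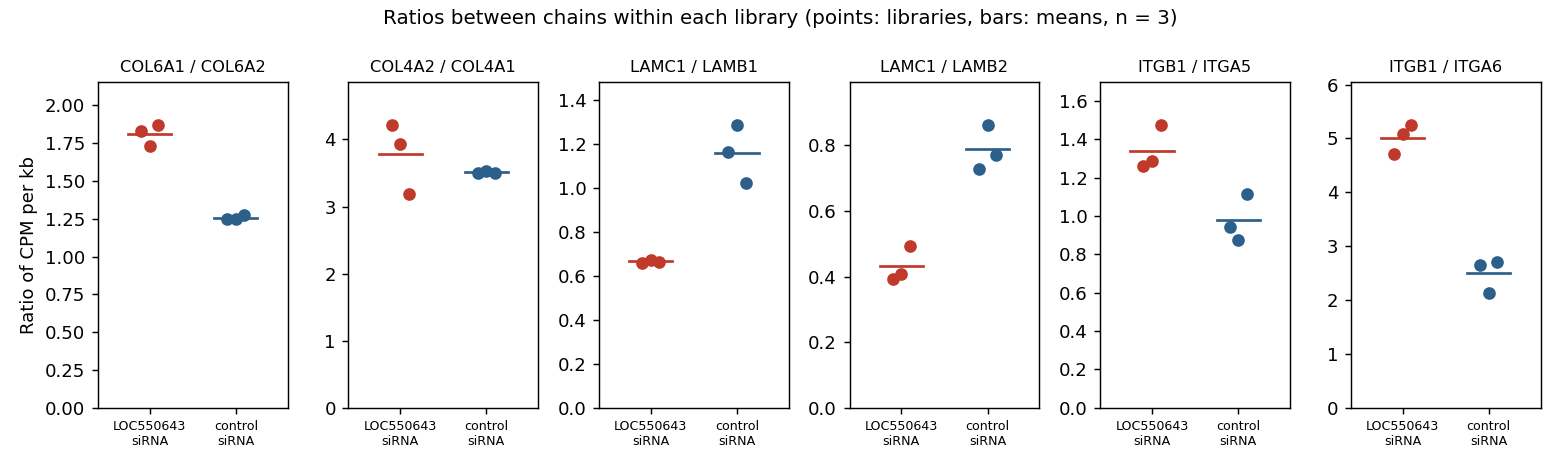
Ratio of CPM per kb between chains of a trimer or pair in each library (y axis from 0), LOC550643 siRNA in red left of control siRNA in blue; bars are means of 3 libraries. COL6A1 over COL6A2, LAMC1 over LAMB1 and LAMB2, and ITGB1 over ITGA5 and ITGA6 do not overlap between groups, while COL4A2 over COL4A1 does.

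Among the alpha chains that bind the RGD sequence of fibronectin, vitronectin and fibrinogen, 1 of 4 fell, where 18.2% of all tested genes did. ITGA5, the fibronectin receptor chain and the most abundant alpha chain, averaged 114 ± 7.07 CPM in LOC550643 siRNA and 102 ± 4.11 CPM in control libraries; its groups did not overlap, yet it did not pass (log2 0.16, SE 0.07, limma adjusted p = 0.116). ITGAV averaged 62.5 ± 4.28 CPM in LOC550643 siRNA and 55.3 ± 7.21 CPM in control libraries (log2 0.18, SE 0.10, limma adjusted p = 0.157), and passed without control library 2 (adjusted p = 0.0235). ITGA8, a chain of kidney development, averaged 9.42 ± 0.871 CPM in LOC550643 siRNA and 11.5 ± 1.22 CPM in control libraries (log2 -0.29, limma adjusted p = 0.0742); it passed without control library 3 and with library totals alone.

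The platelet pair alphaIIb and beta3 was lower in both chains. ITGA2B stood at 19.9, 20.6 and 19.2 CPM in the LOC550643 siRNA libraries and at 26.0, 27.3 and 24.1 CPM in the control libraries (log2 -0.37, SE 0.09, limma adjusted p = 0.00516). ITGB3, which also pairs with ITGAV, stood at 0.783, 0.864 and 0.944 CPM in the LOC550643 siRNA libraries and at 1.72, 1.84 and 1.56 CPM in the control libraries (log2 -0.96, SE 0.21, limma adjusted p = 0.00355). In both genes every LOC550643 siRNA library was below every control library. ITGB5, another partner of ITGAV, averaged 70.8 ± 4.48 CPM in LOC550643 siRNA and 66.4 ± 2.49 CPM in control libraries (log2 0.09, limma adjusted p = 0.368). ITGB1 made up 66.3% ± 1.24 of all beta chains per kilobase in LOC550643 siRNA libraries and 57.0% ± 1.79 in control libraries, while ITGB5 made up 29.96% ± 1.30 in LOC550643 siRNA and 37.1% ± 0.827 in control libraries.

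The other integrins did not pass. ITGB8 averaged 1.13 ± 0.281 CPM in LOC550643 siRNA and 1.58 ± 0.350 CPM in control libraries (log2 -0.48, limma adjusted p = 0.145), and ITGB7, of lymphocytes, 1.79 ± 0.245 CPM in LOC550643 siRNA and 2.58 ± 0.923 CPM in control libraries (log2 -0.47, limma adjusted p = 0.143). ITGB7 passed without control library 3 (adjusted p = 0.0465). ITGA4 averaged 30.9 ± 2.05 CPM in LOC550643 siRNA and 29.2 ± 2.66 CPM in control libraries (log2 0.08, limma adjusted p = 0.511) and overlaps CERKL on the opposite strand. Of the 5 alpha chains best known from leukocytes 0 were called; ITGAE, which overlaps GSG2 on the opposite strand, led them at 21.2 ± 2.03 CPM in LOC550643 siRNA and 20.1 ± 2.93 CPM in control libraries, and the leukocyte markers PTPRC and CD3E were at 0 in all LOC550643 siRNA libraries. Not tested were 14 members with at most 15 read pairs in any library. COL22A1 and LAMB4 were at 0 throughout, and the others were COL1A2, COL5A3, COL6A6, COL8A1, COL9A1, COL10A1, COL11A1, COL17A1, COL28A1, ITGAM, ITGB2 and ITGB6.

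Several called members lie within 500 kb of each other. COL4A1 and COL4A2, COL4A5 and COL4A6, COL6A1 and COL6A2, and COL18A1 and COL6A1 were both higher, and ITGA1 and ITGA2 were both lower. COL18A1 and COL6A1 are 468028 bases apart, and the calls of COL18A1 and of ITGA1 were each lost in 5 of 15 settings. How often neighbours among all genes share a direction was not measured, and a link between neighbours was not tested. COL3A1 and COL5A2 went opposite ways. COL4A4 and COL4A3, whose models start 5 bases apart, had nearly equal log2 fold changes of 0.31 and 0.29, neither passing. COL4A2-AS1, an RNA on the opposite strand within COL4A2, was also higher (1.77 ± 0.156 CPM in LOC550643 siRNA and 1.05 ± 0.0357 CPM in control libraries, log2 0.73, limma adjusted p = 0.0122), and, since the counting did not state use of strand, reads of this RNA and of COL4A2 cannot be told apart.

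The lists of companion genes are read against the background of 17.1% of all tested genes higher and 18.2% lower. Of the 33 tested genes that modify, fold, export and crosslink collagen, 7 rose (21.2%), 6 fell (18.2%) and 20 did not pass, shares near that background; the median log2 fold change was 0.10. P3H3, a prolyl 3-hydroxylase relative, averaged 77.6 CPM in LOC550643 siRNA and 47.4 CPM in control libraries (log2 0.70, limma adjusted p = 0.000114), while P4HA2, a catalytic chain of prolyl 4-hydroxylase, averaged 43.1 CPM in LOC550643 siRNA and 66.6 CPM in control libraries (log2 -0.64, limma adjusted p = 0.000196). SEC23A, a coat protein needed to export procollagen from the endoplasmic reticulum, rose by log2 0.42, and ADAMTS14, which trims procollagen, fell by 1.13 on the log2 scale to 1.10 CPM in LOC550643 siRNA, against 2.46 CPM in control libraries.

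Of the 30 listed partners in the basement membrane and matrix 23 were tested; 4 rose (17.4%) and 5 fell (21.7%), also near the background (median log2 0.07). AGRN, the heparan sulfate proteoglycan agrin that binds laminin, stood at 289, 257 and 244 CPM in the LOC550643 siRNA libraries and at 159, 161 and 142 CPM in the control libraries (log2 0.77, limma adjusted p = 3.44e-05). NTN4, a netrin that binds the laminin gamma1 chain, rose by log2 0.75. SPARC, which binds collagens, fell by 0.78 and THBS1, the matrix protein thrombospondin 1, by 1.03 on the log2 scale. NID1, nidogen, which links LAMC1 to collagen IV and was singled out after its values were seen, averaged 247 CPM in LOC550643 siRNA and 292 CPM in control libraries (log2 -0.24, limma adjusted p = 0.0202).

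On the inner face of the membrane, 37 genes of the integrin adhesion machinery were tested. Of these, 11 rose (29.7%) and 7 fell (18.9%), against 17.1% and 18.2% of all tested genes. Their median log2 fold change was 0.06. Among all genes of at least 50 CPM, 29.0% were higher and 13.1% lower, but this list also holds genes under that level. FLNA, the actin crosslinker filamin A that binds integrin beta tails, stood at 729, 704 and 755 CPM in the LOC550643 siRNA libraries and at 368, 443 and 321 CPM in the control libraries (log2 0.96, limma adjusted p = 3.65e-05). ACTN1, the crosslinker alpha-actinin 1, and DOCK1, a Rac activator of adhesion signalling, rose by log2 0.62 and 0.65. LIMS1, the adaptor PINCH of the integrin-linked kinase complex, averaged 47.2 CPM in LOC550643 siRNA and 79.7 CPM in control libraries (log2 -0.75, limma adjusted p = 2.67e-05).

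Of 19 other matrix receptors 16 were tested; 4 rose (25%) and 5 fell (31.2%), against 17.1% and 18.2% of all tested genes (median log2 0.03). DAG1, dystroglycan, a laminin receptor that is no integrin, stood at 84.1, 87.1 and 81.6 CPM in the LOC550643 siRNA libraries and at 122.4, 135 and 129 CPM in the control libraries (log2 -0.61, limma adjusted p = 5.42e-05). MCAM, a receptor for laminins with the LAMA4 chain, and the proteoglycan CSPG4 fell by 0.76 and 0.87 on the log2 scale. SDC2, a syndecan, rose by log2 0.35. Of the endothelial markers KDR, a receptor for VEGF, averaged 0.776 CPM in LOC550643 siRNA and 2.62 CPM in control libraries (log2 -1.73, limma adjusted p = 0.00014), while PECAM1, CDH5, VWF and TEK were each at no more than 0.102 CPM in any library; the summed level of that list was 0.649 to 1.12 CPM in LOC550643 siRNA and 2.35 to 3.27 CPM in control libraries, and its part in the members' results was not tested. Of 5 epithelial markers, CLDN4 was higher, at 2.01 CPM in LOC550643 siRNA and 1.18 CPM in control libraries (log2 0.76, limma adjusted p = 0.012). EPCAM, at 1.67 CPM in LOC550643 siRNA and 1.43 CPM in control libraries, and CDH1, at 6.19 CPM in LOC550643 siRNA and 6.04 CPM in control libraries, did not pass, and KRT5 and KRT14 were near 0. The summed level of these 5 was 9.15 to 10.8 CPM in LOC550643 siRNA and 8.05 to 9.35 CPM in control libraries, and its part in the members' results was not tested.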

How the data were processed

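The deposited table holds, per gene and library, coverage in exons scaled by the authors to a common total, made with CASAVA 1.8.2, STAR 2.4.0k on hg19 and HOMER, per the labels' protocols and file headers; no strand option is in the header command. It also holds the authors' log2 fold changes and their adjusted p-values from edgeR 3.6.8, deposited by the authors and quoted only where named. In each library 100.0% of low signal values deposited were whole multiples of 1 step (tolerance 0.1 step), from which read pairs were inferred with 2 steps taken as 1 pair. Of values up to 40 steps, 59.2% to 61.0% per library were even multiples, so that 2 steps make 1 pair is an assumption. Depths and counts in read pairs rest on it. Genes were kept with edgeR 4.0.16 filterByExpr (10 read pairs), TMM-scaled, and log2(value + 1 deposited unit, 0.034 CPM) was fitted with limma 3.58.1 in R 4.3.3, two-sided. The recovered reads tested with edgeR's quasi-likelihood test gave 2881 higher and 3022 lower genes, and DESeq2 1.42.0 was a further alternative. Of 26391 genes, 4787 were at 0 throughout and 841 list several positions; in coordinates, hg19 is used for genes and GRCh38.p14 for RefSeq sequences. Scripts were tested on simulated data.

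Called members that average 1 CPM or more and whose groups lie apart are given per library. Their partner chains, the 3 highest chains per family, the other called members and up to 4 genes of each companion list are given per library or by means. The members and gene lists were chosen with earlier results of these data known. The values of 1 called member are not reported here. Older symbols in the lists were matched through the table's own annotation.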

Additional observations from a re-analysis of the deposited data

How the results depend on the processing

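Under 15 alternative settings, 17 of the 24 called members (9 higher, 8 lower) passed in all, and 7 were lost in at least 1. No called member changed sign. Leaving out each library in turn gave 1983 to 2529 higher and 2274 to 2978 lower genes, and 9 to 12 higher and 9 to 14 lower members. With library totals alone the share of calls that were higher was 34.3%, against 48.5% with TMM, and the median of all genes was -0.095, against -0.02. Signs turned only for members that did not pass: LAMB1 was -0.022 with library totals alone, and ITGA3 was 0.002 with median of ratios scaling, 0.015 with edgeR and 0.021 with DESeq2. Over the settings without 1 library, the COL1A1 log2 fold change ran from -0.089 to 0.009, ITGA3 from -0.083 to 0.08, LAMA3 from -0.441 to 0.005 and LAMA5 from -0.257 to 0.108 on the log2 scale. The cause was not tested.

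No pairing of the samples by replicate number was seen. Deviations of same-numbered samples correlated at 0.06, -0.283 and -0.116, and the highest correlation was 0.245 between different numbers. With 3 libraries per group these correlations cannot exclude a pairing. With the replicate block 2575 genes were higher and 2730 lower, and 11 members were higher and 12 lower. LOC550643 siRNA library 3, at 8604237 read pairs, limits low members most.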
